A study of Homo sapiens with 10 samples.

Results

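The enzymes that place methyl groups on DNA and those that take them off were followed at the RNA level in GIST-T1, an established human cell line from a metastasis of a gastrointestinal stromal tumour (GIST), and in 4 lines derived from it. The set was chosen by gene symbol and holds DNMT1, DNMT3A, DNMT3B, UHRF1, UHRF2, TET1, TET2, TET3, TDG and MBD4. These were 10 of the 58381 gene rows in the tables, and all 10 were among the 15554 genes that passed the filter on low counts. The study asked how disrupting a CTCF insulator changes expression in GIST cells whose succinate dehydrogenase (SDH) is intact. CTCF is a DNA-binding protein that bounds many chromosome loops. The control group was GIST-T1 with the genotype label WT. The other groups were the derivatives InsE, InsF, InsG and InsH, which the series describes as insulator knockouts, and each of the 5 groups had 2 libraries of polyadenylated RNA. All groups shared the GIST-T1 background and 1 culture medium with serum, and the labels name no treatment. The labels give neither the edit behind each letter nor whether a line is 1 clone. They also do not say whether the libraries of a group were separate cultures, so the p-values cover only the spread between these libraries, and that spread may be technical.

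In mammals, DNA methylation sits mostly on cytosines that are followed by guanine (CpG). DNMT3A and DNMT3B set new methyl groups, and DNMT1 copies the pattern onto the new strand after replication, brought there by UHRF1, which reads half-methylated CpG. The TET enzymes oxidise methylated cytosine with oxygen, iron and alpha-ketoglutarate. TDG cuts out some of the oxidised bases, and base excision repair restores plain cytosine. In GIST that have lost SDH, succinate builds up, which inhibits TET enzymes, and these tumours are known for widespread DNA hypermethylation. GIST-T1 has intact SDH. DNA methylation itself was not measured in these libraries.

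The libraries held 9.4 to 42.5 M (mega) expected counts (RSEM's estimates of fragments per gene), with 20.1 to 30.8 M in the control. In each line, the library labelled replicate 2 was the shallower. The GIST markers KIT, ANO1, CD34 and ETV1 were at 344 to 724, 289 to 520, 1450 to 1710 and 103 to 164 TPM (RSEM's length-corrected transcript share) over the 10 libraries. Of 6 such markers, 4 fell in the mean of the lines and none rose. At the same threshold (edgeR adjusted p under 0.05), 14.5% of the genes that passed the filter fell and 13.1% rose. In InsG and in InsH taken singly, 4 of the 6 fell and 1 rose. In the mean of the lines KIT fell by 0.80 ± 0.04 (log2, edgeR adjusted p = 2.78e-06), ANO1 by 0.77 ± 0.05 (6.15e-06), PRKCQ by 0.47 ± 0.07 (0.000736) and CD34 by 0.21 ± 0.04 (0.00624). KIT and ANO1 thus changed by more than any member in that comparison, and the part of this in the members' results was not tested. Of 12 markers of leukocytes, endothelium, epithelium and melanocytes, 9 stayed below 1 TPM in every library, among them PTPRC, CD3E, PECAM1 and CDH1 at no more than 0.1 TPM, and the other 3 were KRT18 (178 to 252), KRT8 (15.1 to 24.7) and PMEL (1.57 to 4.56). The control libraries were closer to each other than those of any line were, with a chi-square per degree of freedom between replicates of 1.4 against 6.4 to 7.4. Same-numbered libraries of the 4 lines deviated together from their group means (r of 0.533 to 0.64 over 13211 genes for the 6 pairs of lines). The control did not share this deviation (r of -0.015 to 0.096), so the replicate numbers pair the lines with each other but not with the control. Any difference in handling between control and line libraries cannot be told apart from the changes against control.

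The promoters of TET1, TET2 and UHRF1 are shown because CpG is the dinucleotide on which these enzymes act, and for each gene the first listed window free of annotated exons was taken. TET1 fell in all lines, TET2 in InsE, and UHRF1 in all lines, as given further on. Each run is the 250 bases before a RefSeq start (GRCh38.p14, plus strand), with every CpG in capitals. None of the 3 holds a base of a GENCODE exon, and each gene has other starts in the table. The TET1 window is chr10:68560087-68560336, the TET2 window chr4:105145625-105145874 and the UHRF1 window chr19:4909894-4910143.
TET1: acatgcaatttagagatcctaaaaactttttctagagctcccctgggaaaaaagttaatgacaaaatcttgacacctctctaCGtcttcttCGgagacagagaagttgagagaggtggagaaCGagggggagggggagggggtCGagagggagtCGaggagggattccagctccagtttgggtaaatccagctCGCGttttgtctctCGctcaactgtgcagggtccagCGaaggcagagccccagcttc
TET2: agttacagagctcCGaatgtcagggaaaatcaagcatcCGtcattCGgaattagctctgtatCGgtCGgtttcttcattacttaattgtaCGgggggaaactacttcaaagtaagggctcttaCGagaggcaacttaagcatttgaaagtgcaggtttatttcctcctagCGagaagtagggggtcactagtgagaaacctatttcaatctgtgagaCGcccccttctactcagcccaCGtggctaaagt
UHRF1: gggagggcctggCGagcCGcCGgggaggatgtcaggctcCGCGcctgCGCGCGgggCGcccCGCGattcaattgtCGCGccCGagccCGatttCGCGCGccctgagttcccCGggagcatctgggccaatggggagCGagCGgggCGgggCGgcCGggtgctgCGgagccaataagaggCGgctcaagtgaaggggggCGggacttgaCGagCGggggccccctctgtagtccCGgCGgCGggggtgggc
The TET1 window holds 9 CpG, more than 45.9% of the 35116 promoter windows in the table. The TET2 window holds 10, more than 47.8%, while the window of its other start holds 34, more than 93.2%. The UHRF1 window holds 32, more than 90.5%. The windows of the other starts hold 4 and 11 CpG for TET1 and 28 and 41 for UHRF1. Over all 10 members, which all matched the table with 21 windows, 16 windows held more CpG than the median promoter (11). The letters TTTCGCGC, a form of the E2F site, occur on either strand in 0.439% of all promoters and among the members in the UHRF1 window above, where they overlap CpG. TTTCCCGC, another form, occurs in 1.39% of promoters and in another window of UHRF1, and TTTGGCGC (0.55%) in none of the member windows. GGGCGG (42.6% of promoters) and CCAAT (32%) were in windows of 6 members each, and CACGTG (6.34%) in windows of DNMT3A, TET2, TET3 and TDG. The percentages count single windows, while a member counts with a match in any of its windows, so they are not like for like. Such matches describe letters in these windows and show no binding.

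Per length, UHRF1 was the highest of the members in the control, at a mean of 114 TPM, above 90.5% of tested genes. DNMT1 followed at 69.9 TPM, then MBD4 at 48.8, DNMT3A at 28.6, TDG at 23.8 and UHRF2 at 16.5. TET1 and TET3 were close to each other at 8.81 and 8.34 TPM, TET2 was at 4.76, and DNMT3B was lowest at 2.56 TPM, above 25.5% of tested genes. The maintenance pair UHRF1 and DNMT1 was thus above both de novo enzymes, far above DNMT3B and by less above DNMT3A. Each TET gene was below the median tested gene in level. Fold changes below compare the same gene between groups on the count scale, in CPM (counts scaled to the library size, here after TMM), as log2 change ± SE from edgeR's quasi-likelihood fit. A gene was called at a Benjamini-Hochberg adjusted p under 0.05 over all 15554 tested genes.

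**Figure D1:**
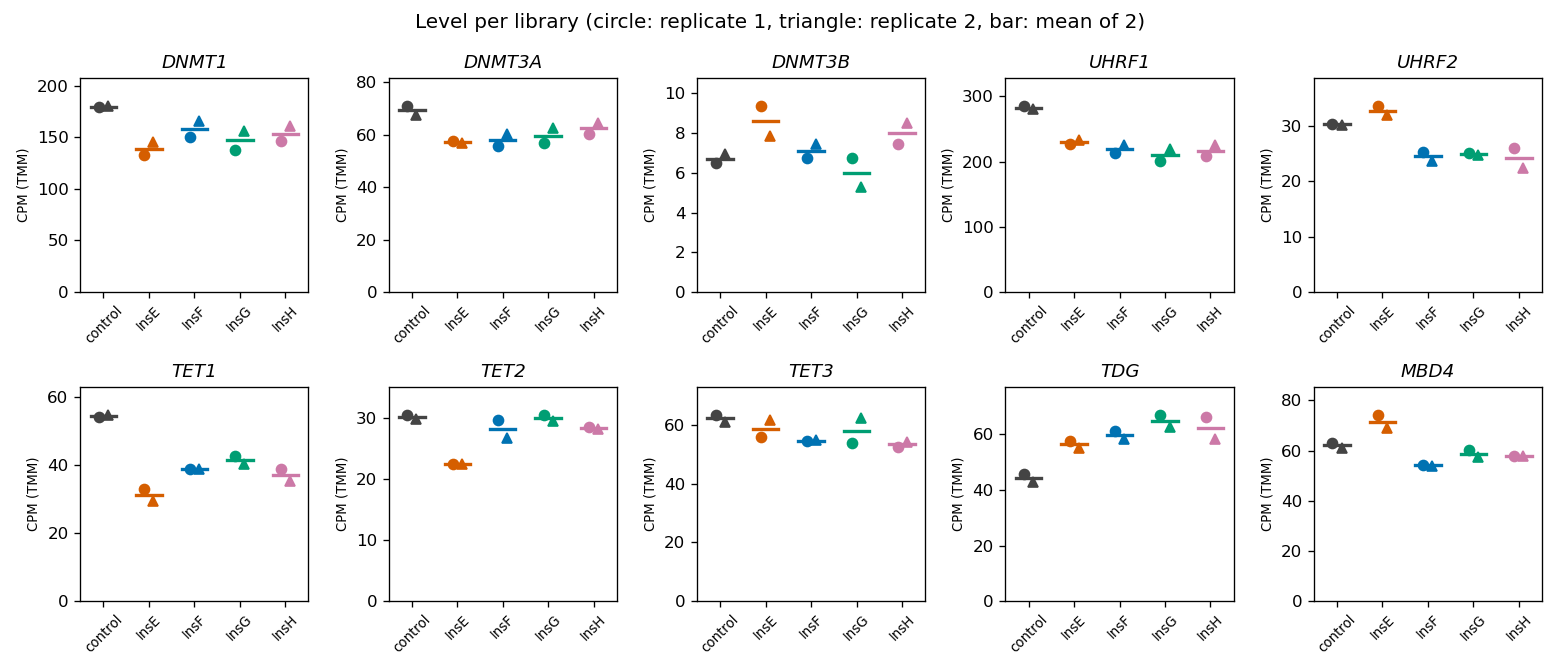
Level of each member in CPM (vertical axis, from 0, a separate scale per gene) in the 10 libraries by group. Circles are replicate 1, triangles replicate 2 and bars the mean of 2. TET1 runs from 54.2 and 54.7 in the control down to 29.4 in InsE, TDG from 42.9 and 45.9 up to 66.9 in InsG.

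Averaged over the 4 lines and set against control, 6 of the 10 members were called, where 27.6% of all tested genes were called. TDG rose and DNMT1, DNMT3A, UHRF1, UHRF2 and TET1 fell (13.1% of tested genes were called higher and 14.5% lower). The median change of the members was -0.17, and that of all tested genes 0.01. In InsE 7 members were called (23.2% of tested genes), of which 2 were higher (10.8%) and 5 lower (12.4%). In InsF 6 were called (22.3%), 1 higher (10.9%) and 5 lower (11.3%). In InsG 5 were called (20.3%), 1 higher (9.86%) and 4 lower (10.5%). In InsH 4 were called (18.4%), 1 higher (8.95%) and 3 lower (9.46%). UHRF1, TET1 and TDG were called in all 4 lines, for which the share over all tested genes was not counted. The 4 comparisons share the control libraries. All 8 line libraries lay below both control libraries for DNMT1, DNMT3A, UHRF1 and TET1, a pattern held by 14.7% of tested genes, and above both for TDG, a pattern held by 13.3%. These are RNA levels of whole cultures, in which fewer cells that express a gene and less RNA per cell cannot be told apart.

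**Figure D2:**
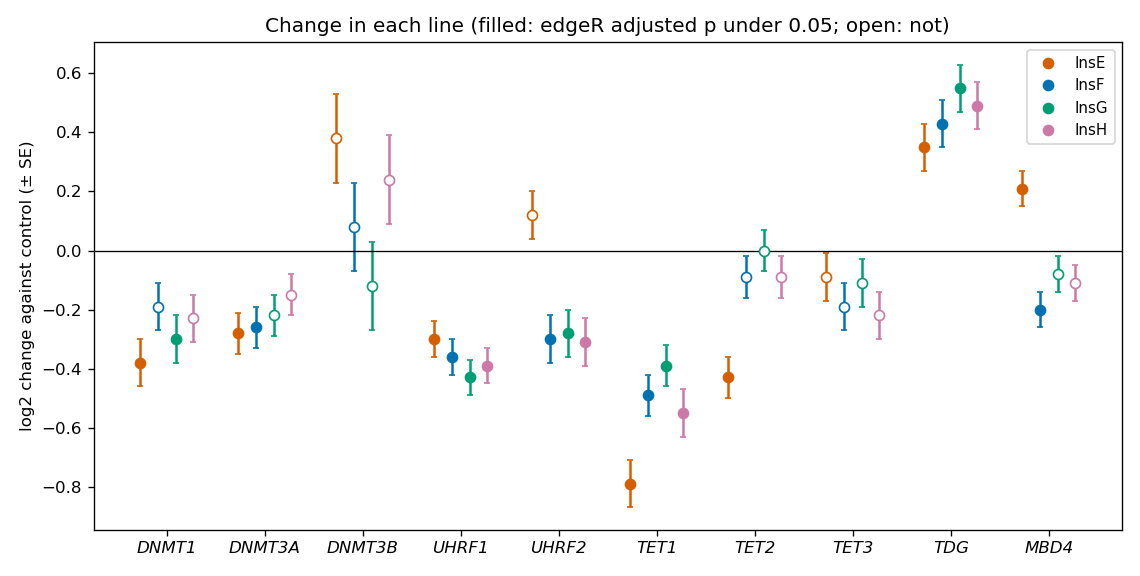
The log2 change of each member against control (vertical axis, ± SE) in InsE, InsF, InsG and InsH. Filled points passed an edgeR adjusted p under 0.05 and open points did not. TET1 and UHRF1 lie below 0 and TDG above 0 in all 4 lines, and UHRF2 and MBD4 lie above 0 in InsE and below 0 in the other lines on this count scale (on TPM, UHRF2 in InsE is at -0.08 and MBD4 in InsG at 0.02).

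DNMT1, the maintenance methyltransferase, had a lower CPM in every line library than in the control. DNMT1 (ENSG00000130816.15, chr19:10133345-10231286, minus strand, hg38) was at 179 and 180 CPM in the control. It was at 133 and 145 in InsE, 150 and 166 in InsF, 138 and 156 in InsG, with 146 and 161 in InsH. The control and line libraries did not overlap, and the lines overlapped each other in steps down the order InsF, InsH, InsG, InsE. In the mean of the lines DNMT1 fell by 17.3% (log2 -0.27 ± 0.06, edgeR adjusted p = 0.0101). It passed in InsE (-0.38 ± 0.08, edgeR adjusted p = 0.00937) and InsG (-0.30 ± 0.08, 0.0296), and not in InsF (-0.19 ± 0.08, 0.124) or InsH (-0.23 ± 0.08, 0.0762). InsF and InsH did pass in edgeR without the filter (adjusted p = 0.0341 and 0.0104). They also passed with the replicate number as a block (0.00272 and 0.000843) or with the 2 groups fitted alone (0.0492 and 0.025). With DESeq2 they did not (adjusted p = 0.142 and 0.0594). The edgeR call in the mean was lost without control replicate 1 (adjusted p = 0.0995) or control replicate 2 (0.0926). That in InsE was lost without either control (0.0629, 0.0603) or InsE replicate 1 (0.074), and that in InsG without either control (0.138, 0.132) or InsG replicate 1 (0.208).

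The fall of DNMT1 depended on the scale. In TPM, which corrects for length, DNMT1 was at 69.09 and 70.77 in the control. It was at 66.5 and 62.07 in InsE, 67.56 and 74.19 in InsF, 63.01 and 67.57 in InsG, with 64.92 and 67.47 in InsH. InsF replicate 2 lay above both controls, and the log2 difference of all lines was -0.07 on TPM against -0.27 on CPM. With limma on log2(TPM + 1) the mean of the lines was not called (adjusted p = 0.53). RSEM gives a gene a length weighted by its estimated isoforms, and for DNMT1, with 28 transcripts in the tables, this length was 4024 and 3958 bases in the control and 3216 to 3822 bases in the lines. This length was shorter in all 8 line libraries than in both controls, a pattern held by 399 of the 15554 tested genes (2.57%), and DNMT1 was the sole member with it. The difference in length was -15.5% in InsE, -8.63% in InsF, -4.6% in InsH and -6.54% in InsG. For all lines it was -8.91% (log2 -0.13), which is less than the gap between CPM and TPM. TET1, whose length does not vary, was also nearer 0 on TPM (-0.5) than on CPM (-0.56). The part of length in the DNMT1 gap was not tested. S1PR2, a receptor gene on the same strand whose exons overlap those of DNMT1, had 1259 counts over all libraries against 34172 for DNMT1, and fell by 0.59 ± 0.12 (log2) in the mean of the lines (edgeR adjusted p = 0.00563). Its part in the DNMT1 result was not tested.

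**Figure D3:**
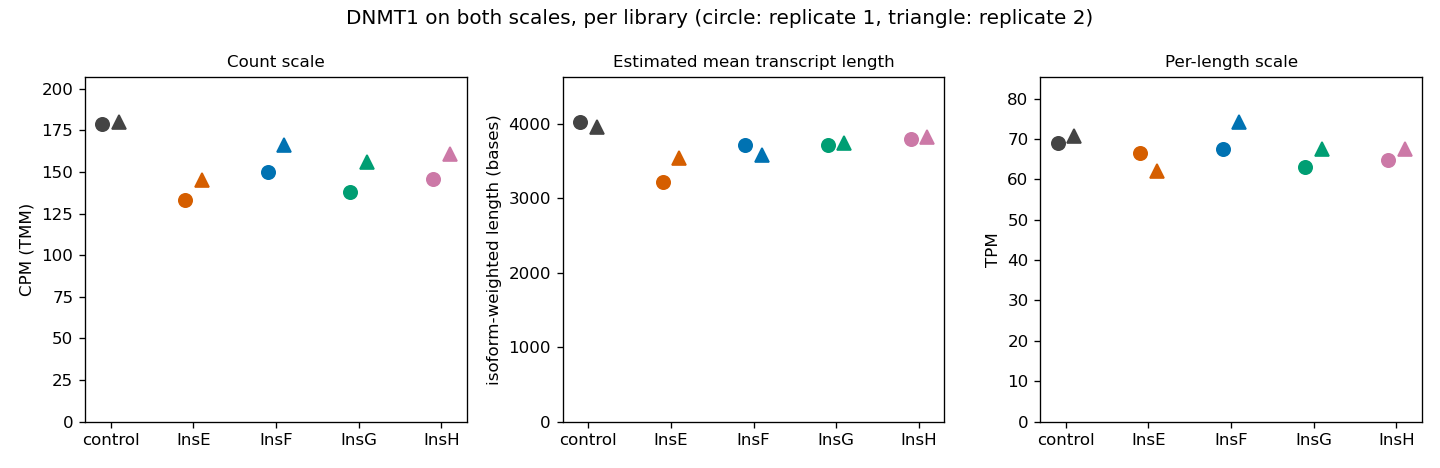
DNMT1 per library in CPM (left), isoform-weighted transcript length in bases (middle) and TPM (right), all axes from 0, circles for replicate 1 and triangles for replicate 2. All 8 line libraries lie below both controls in CPM and in length, and in TPM InsF replicate 2 (74.19) lies above both controls (69.09 and 70.77).

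DNMT3A, a de novo methyltransferase, was also lower in all line libraries than in the control. DNMT3A (ENSG00000119772.16, chr2:25227855-25342590, minus strand) was at 70.9 and 67.7 CPM in the control, 57.8 and 56.7 in InsE, 55.8 and 60.5 in InsF, 56.7 and 62.6 in InsG, with 60.3 and 64.7 in InsH. All line libraries lay below both controls, and neighbouring lines overlapped. The mean of the lines fell by 14.6% (-0.23 ± 0.06, edgeR adjusted p = 0.0146), with calls in InsE (-0.28 ± 0.07, 0.0238) and InsF (-0.26 ± 0.07, 0.0311) and none in InsG (-0.22 ± 0.07, 0.0552) or InsH (-0.15 ± 0.07, 0.179). With the replicate block InsG (edgeR adjusted p = 0.00524) and InsH (0.0495) were called, and InsG also with its 2 groups fitted alone (0.0406). On TPM the difference of all lines was -0.27 and that of InsE -0.46, so the direction held on both scales. The edgeR call in the mean was lost without control replicate 1 (adjusted p = 0.186) or 2 (0.0771). The InsE call was lost without either control or either InsE library (edgeR adjusted p of 0.0817 to 0.157), and the InsF call without either control (0.197, 0.0921) or InsF replicate 1 (0.178). With library sizes alone neither was called in edgeR (adjusted p = 0.0512 in InsE and 0.0663 in InsF), and InsF was also not called with DESeq2 (0.0656) or limma on log2(TPM + 1) (0.0723).

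DNMT3B, the other de novo enzyme, was at a low level and was not called in any comparison of the fit of all 10 libraries without a block. With the replicate block it was called in InsE against control (edgeR adjusted p = 0.0377). Without InsG replicate 1, InsE against the mean of the other lines was called for DNMT3B (edgeR adjusted p = 0.0452). DNMT3B (ENSG00000088305.18, chr20:32762385-32809356, plus strand) was at 6.51 and 6.93 CPM in the control, 9.35 and 7.83 in InsE, 6.77 and 7.47 in InsF, 6.75 and 5.28 in InsG, with 7.46 and 8.53 in InsH, from 59 to 292 counts a library. InsE and InsH libraries lay above both controls, those of InsF and InsG overlapped them, and every pair of neighbours in the order of group means overlapped. The change was 0.38 ± 0.15 in InsE (edgeR adjusted p = 0.0925) and 0.15 ± 0.12 in the mean of the lines (0.387). Its SE was the widest of the 10 members.

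UHRF1, the reader that brings DNMT1 to replicated DNA, fell in all 4 lines. UHRF1 (ENSG00000276043.4, chr19:4903080-4962154, plus strand) was at 285 and 281 CPM in the control, 227 and 233 in InsE, 213 and 226 in InsF, 201 and 219 in InsG, with 208 and 225 in InsH. The highest line library was at 233, below the lower control at 281, and both InsE libraries lay above the other 6 of the lines. In the fit of all 10 libraries UHRF1 was not called among the lines, either without a replicate block (edgeR adjusted p = 0.459) or with it. It was called in a blocked fit of the line libraries alone (edgeR adjusted p = 4.1e-06). That fit was added after the data were seen, and it called 56.8% of tested genes. The change was -0.30 ± 0.06 in InsE (edgeR adjusted p = 0.0079), -0.36 ± 0.06 in InsF (0.00279), -0.39 ± 0.06 in InsH (0.00249) and -0.43 ± 0.06 in InsG (0.00134). In the mean of the lines UHRF1 fell by 22.6% (-0.37 ± 0.05, edgeR adjusted p = 0.000457), and on TPM the difference was -0.31. The mean was called whichever library was left out (largest edgeR adjusted p = 0.0167), while the InsE call was lost without control replicate 1 (0.067), control replicate 2 (0.0505) or InsE replicate 1 (0.0523). UHRF1 counts were not whole in any of the 10 libraries, which shows that RSEM split some of its reads with other sequences.

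UHRF2, a relative of UHRF1 with a similar domain make-up, separated InsE from the other lines. UHRF2 (ENSG00000147854.16, chr9:6413151-6507054, plus strand) was at 30.3 and 30.2 CPM in the control and at 33.5 and 31.9 in InsE. It was at 25.3 and 23.6 in InsF, 25 and 24.7 in InsG, with 25.9 and 22.4 in InsH. Both InsE libraries lay above the controls and all 6 libraries of the other lines below them. UHRF2 fell by 0.30 ± 0.08 in InsF (edgeR adjusted p = 0.0246), by 0.31 ± 0.08 in InsH (0.0256) and by 0.28 ± 0.08 in InsG (0.0345), and its change in InsE was 0.12 ± 0.08 (0.318). None of these falls was called with library sizes alone, with limma on TPM or with DESeq2 (adjusted p = 0.125, 0.166 and 0.115 for InsF, InsG, InsH). They were lost in edgeR without either control (adjusted p of 0.115 to 0.166), and each was also lost without at least 1 library of its own line: InsF replicate 1 (0.0564) or 2 (0.12), InsG replicate 1 (0.155) or 2 (0.0903) and InsH replicate 2 (0.13). The fall in the mean of the lines (-0.19 ± 0.06, edgeR adjusted p = 0.0424) was lost in 7 of 10 fits that left out a library, and in DESeq2 (adjusted p = 0.203). The edgeR adjusted p was 0.238 without control replicate 1. The other libraries were control replicate 2 (0.215), InsE replicates 1 (0.0501) and 2 (0.0628), InsF replicate 2 (0.0646) and InsG replicates 1 (0.0629) and 2 (0.0606). In InsE the isoform-weighted length was 13.2% longer than in the control, and on TPM the difference of InsE from control was -0.09, against 0.11 on CPM.

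TET1, an oxidase of methylated cytosine, had the largest change of the members in the mean of the lines. TET1 (ENSG00000138336.8, chr10:68560656-68694482, plus strand) was at 54.2 and 54.7 CPM in the control, 32.9 and 29.4 in InsE, 38.9 and 38.8 in InsF, 42.6 and 40.3 in InsG, with 38.9 and 35.3 in InsH. All 8 line libraries lay below both controls, and both InsE libraries lay below the other 6. TET1 fell by 42.3% in InsE (-0.79 ± 0.08, edgeR adjusted p = 0.000124), with changes of -28.7% in InsF (-0.49 ± 0.07, 0.00158), -31.6% in InsH (-0.55 ± 0.08, 0.00113) and -23.6% in InsG (-0.39 ± 0.07, 0.00607). The mean of the lines fell by 31.9% (-0.55 ± 0.06, edgeR adjusted p = 0.000113). TET1 has a single transcript of 9288 bases in the tables, so its length does not vary. Its mean was called whichever library was left out (largest edgeR adjusted p = 0.00556), and the InsG call was lost without control replicate 1 (0.0518) or 2 (0.0575). With limma on log2(TPM + 1), InsE and the mean were called and InsF, InsG and InsH were not (adjusted p = 0.0764, 0.169 and 0.0589).

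TET2, the second of these oxidases, was lower in InsE, and its libraries in the other lines stayed near the control. TET2 (ENSG00000168769.13, chr4:105145875-105279816, plus strand) was at 30.4 and 29.8 CPM in the control, 22.4 in both InsE libraries, 29.7 and 26.7 in InsF, 30.4 and 29.5 in InsG, with 28.5 and 28.2 in InsH. InsE lay below all other libraries, and InsG overlapped the control. TET2 fell by 25.7% in InsE (-0.43 ± 0.07, edgeR adjusted p = 0.00276), and this call held whichever library was left out (largest 0.0334). The change was -0.09 ± 0.07 in InsF (edgeR adjusted p = 0.406), -0.09 ± 0.07 in InsH (0.442) and 0.00 ± 0.07 in InsG (0.981). The mean of the lines was not called (-0.15 ± 0.05, edgeR adjusted p = 0.0654), though it was with the replicate block (0.0207). The InsE fall was not called with limma on log2(TPM + 1) (adjusted p = 0.071).

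TET3, the oxidase best known from the zygote, was not called in any comparison of the fit of all 10 libraries without a block. With the replicate block, which does not pair the control, it was called in InsF (edgeR adjusted p = 0.0261), InsH (0.0131) and the mean of the lines (0.0151). TET3 (ENSG00000187605.15, chr2:73986404-74108176, plus strand) was at 63.3 and 61.1 CPM in the control, 55.9 and 61.6 in InsE, 54.5 and 54.9 in InsF, 53.7 and 62.4 in InsG, with 52.6 and 54.2 in InsH. InsE and InsG overlapped the control, and InsF and InsH lay below it. The change in the mean of the lines was -0.15 ± 0.06 (edgeR adjusted p = 0.0974), and the lowest of the single lines was InsH with -0.22 ± 0.08 (0.0872). The mean was called without InsG replicate 2 (edgeR adjusted p = 0.0348), and InsH without InsG replicate 1 (0.0462) or with its 2 groups fitted alone (0.035).

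Summed over the 3 genes of each kind, TET RNA was lower in every line library, while DNMT RNA overlapped the control. The TET sum was 22.0 and 21.8 TPM in the control, 16.6 and 16.1 in InsE, 19.6 and 18.3 in InsF, 20.7 and 20.1 in InsG, with 19.6 and 18 in InsH. The DNMT sum was 99.6 and 103 TPM in the control and 85.4 to 101 in the lines, where InsF replicate 2 at 101 was inside the control range. The ratio of the sums was 4.53 and 4.69 in the control, 5.51 and 5.32 in InsE, 4.76 and 5.51 in InsF, 4.38 and 4.82 in InsG, with 4.78 and 5.3 in InsH. InsE, InsF and InsH lay above both controls, and InsG spanned them. In InsG the lower TET sum came with TET1, at a mean of 7.14 TPM against 8.81 in the control. There TET2 was at 5.03 against 4.76 and TET3 at 8.22 against 8.34. In InsF and InsH TET1 was at 6.61 and 6.36 TPM, TET2 at 4.65 and 4.78, and TET3 at 7.68 and 7.64. The DNMT sum is mostly DNMT1 and the sums were not tested.

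**Figure D4:**
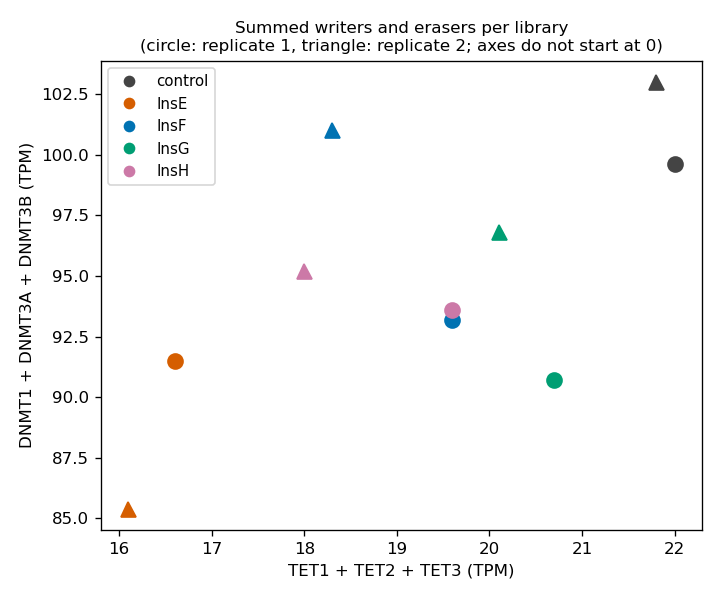
Sum of DNMT1, DNMT3A and DNMT3B (vertical axis, TPM) against the sum of TET1, TET2 and TET3 (horizontal axis, TPM) per library, coloured by group, circles for replicate 1 and triangles for replicate 2. Axes do not start at 0. The controls are farthest right at 21.8 and 22.0 TPM of TET, and InsE farthest left at 16.1 and 16.6.

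TDG, the glycosylase that removes some oxidised forms of methylcytosine, was the sole member called higher in the mean of the lines. TDG (ENSG00000139372.14, chr12:103965804-103988874, plus strand) was at 45.9 and 42.9 CPM in the control, 57.8 and 55 in InsE, 61.4 and 58.5 in InsF, 66.9 and 62.8 in InsG, with 66.3 and 58.2 in InsH. All line libraries lay above both controls, and both InsE libraries lay below the other 6 of the lines. The rise was 0.35 ± 0.08 in InsE (edgeR adjusted p = 0.0122), 0.43 ± 0.08 in InsF (0.00389), 0.49 ± 0.08 in InsH (0.00248) and 0.55 ± 0.08 in InsG (0.00127). In the mean of the lines TDG was 37.1% higher (0.45 ± 0.06, edgeR adjusted p = 0.000733), and 0.53 higher on the log2 TPM scale. The mean was called whichever library was left out (largest edgeR adjusted p = 0.0279). The InsE call was lost without control replicate 1 (0.0545), control replicate 2 (0.111) or InsE replicate 1 (0.0991), and the InsF call without control replicate 2 (0.0559). The InsE rise was not called with limma on log2(TPM + 1) (adjusted p = 0.15), nor with a pseudocount of 0.1 (0.155) or no filter (0.202), and with no filter InsF was not called either (0.0502). TDG counts were not whole in 7 of 10 libraries. Its processed pseudogene TDGP1 had 30 counts over all libraries against 12980 for TDG.

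MBD4, a glycosylase that repairs the thymine left by deamination of methylated cytosine, was higher in InsE and lower in InsF. MBD4 (ENSG00000129071.9, chr3:129430944-129440179, minus strand) was at 63.2 and 61.2 CPM in the control, 74.1 and 69.0 in InsE, 54.4 and 54.0 in InsF, 60.3 and 57.3 in InsG, with 57.7 and 57.9 in InsH. InsE lay above the control and the other lines below it, without overlap. On TPM, InsG (49.33 and 49.63) and InsH (49.16 and 48.39) lay between the controls (50.38 and 47.24). MBD4 rose by 0.21 ± 0.06 in InsE (edgeR adjusted p = 0.0375) and fell by 0.20 ± 0.06 in InsF (0.0423), and each call was lost in 7 of 10 fits that left out a library. In InsE these were either control (edgeR adjusted p = 0.139, 0.224), InsE replicate 1 (0.263) and either library of InsF (0.0541, 0.0568) or InsH (0.0527, 0.0555). In InsF they were either control (edgeR adjusted p = 0.237, 0.134), either InsF library (0.14, 0.138), InsG replicate 1 (0.0507) and either InsH library (0.0585, 0.056). DESeq2 did not call either (adjusted p = 0.16 and 0.158). Exons of MBD4 overlap those of IFT122, a cilium transport gene on the opposite strand with 6580 counts over all libraries against 13682 for MBD4. The strand setting of the counting is not given in the sources used here, so reads in the overlap cannot be told apart. IFT122 rose by 0.40 ± 0.07 in InsE (edgeR adjusted p = 0.00409), and its part in the MBD4 result was not tested.

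Among the 4 lines, UHRF2, TET1, TET2 and MBD4 differed, which is 4 of 10 members where 13.2% of tested genes were called. The edgeR adjusted p for any difference among the lines was 0.0132 for UHRF2, 0.0309 for TET1, 0.0155 for TET2 and 0.00792 for MBD4. Earlier results of these data set InsE apart, and its comparison with the other lines was chosen for that reason. Set against the mean of InsF, InsG and InsH, InsE had UHRF2 higher by 0.42 ± 0.07 (edgeR adjusted p = 0.0017) and MBD4 higher by 0.33 ± 0.05 (0.00127). TET1 was lower there, at -0.32 ± 0.07 (edgeR adjusted p = 0.00699), and so was TET2, at -0.37 ± 0.06 (0.00231). In this comparison 24.2% of tested genes were called, 11.4% higher and 12.8% lower, and its median over the members was 0.01, as over all tested genes. Both InsE libraries lay below all 6 of the other lines for TET1, TET2 and TDG (17.5% of tested genes) and above them for UHRF1, UHRF2 and MBD4 (16.6%). With the replicate number as a block, which pairs the lines, 6 members differed among the lines (35% of tested genes), with DNMT1 (edgeR adjusted p = 0.0229) and TDG (0.0327) added. In the same blocked fit InsE differed from the mean of the other lines in 8 members (38.2% of tested genes), with DNMT1 (edgeR adjusted p = 0.0117), DNMT3B (0.0393), UHRF1 (0.0299) and TDG (0.015) added. A blocked fit of the line libraries alone, added after the data were seen, also gave 8 members in each comparison, where 56.8% and 50.7% of tested genes were called. There InsE was lower in DNMT1 by a log2 change of -0.13 (edgeR adjusted p = 1.44e-05) and in TDG by -0.15 (0.00037), and higher in UHRF1 by 0.11 (8.17e-06) and in DNMT3B by 0.33 (0.00666).

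Leaving out an InsE library ended calls among the lines in the fit without a block. Without InsE replicate 1 none of the 10 members was called in edgeR (4 at an unadjusted p under 0.05), with adjusted p = 0.184 for UHRF2, 0.0765 for TET1, 0.156 for TET2 and 0.113 for MBD4. Without InsE replicate 2, MBD4 alone was called and the edgeR adjusted p was 0.0523 for UHRF2, 0.173 for TET1 and 0.0951 for TET2. TET1 was also lost without control replicate 1 (0.0772) or 2 (0.0918), InsF replicate 1 (0.0617) or 2 (0.0559) and InsG replicate 1 (0.104). DESeq2 called UHRF2 and MBD4 among the lines and not TET1 (adjusted p = 0.0639) or TET2 (0.0874), and limma on TPM called none of the 10 (4 at an unadjusted p under 0.05). The signed difference of InsE from the mean of the other lines, a comparison chosen with InsE already set apart, held in more of these fits. UHRF2, TET2 and MBD4 kept that call whichever library was left out (largest edgeR adjusted p of 0.04, 0.0392 and 0.0327), and TET1 lost it without InsE replicate 2 (0.0736). With limma on log2(TPM + 1) TET1 and TET2 kept it, and UHRF2 (adjusted p = 0.158) and MBD4 (0.0575) did not.

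Other genes of the same machinery were read as lists, in the mean of the lines, where 27.6% of all tested genes were called, 13.1% higher and 14.5% lower. Of the 12 partners that guide methylation, 9 were tested and 6 fell, none rose, with a median of -0.17. CDCA7, which works with the remodeller HELLS, fell by 0.49 ± 0.08 (edgeR adjusted p = 0.00134). SETD2 and NSD1, which write the histone H3 lysine 36 methylation that DNMT3 enzymes read, fell by 0.33 ± 0.05 (edgeR adjusted p = 0.00197) and 0.31 ± 0.04 (0.000598). CDCA7, as UHRF2, did not fall in InsE, at 0.02 and -0.55 to -0.78 in the other lines, and InsE was higher than their mean by 0.68 ± 0.08 (edgeR adjusted p = 0.000351). The other 3 calls, named after their values were seen, were PCNA, EZH2 and USP7, at -0.17, -0.22 and -0.13. DNMT3L, DPPA3 and ZFP57 were too low to test. The count was 3 without control replicate 1 and 3 without control replicate 2, and with limma on log2(TPM + 1) it was 1, CDCA7 (adjusted p = 0.0385).

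Of the 11 base excision repair partners of TDG, all tested, UNG, LIG3 and PARP1 fell and NEIL3 rose, with a median of -0.01. The share called, 4 of 11, was near that of all tested genes (27.6%). Without control replicate 1 the count of 4 was 1, and without control replicate 2 it was 3. UNG, which removes uracil, fell by 0.47 ± 0.05 (edgeR adjusted p = 0.000172) and was called in each line (-0.39 to -0.52). LIG3, a ligase of this pathway, fell by 0.37 ± 0.06 (edgeR adjusted p = 0.00278) and lost the call without control replicate 1 (0.0539). NEIL3, another glycosylase, rose by 0.28 ± 0.08 (edgeR adjusted p = 0.0273) and lost it without control replicate 2 (0.243). Of the 7 readers of methylated CpG, all tested, 3 fell and none rose (14.5% and 13.1% of all tested genes), with a median of -0.10. The count was 2 without control replicate 1 and 1 without control replicate 2. Among them ZBTB38 fell by 0.31 ± 0.05 (edgeR adjusted p = 0.00163) and ZBTB33 by 0.30 ± 0.07 (0.0144), and ZBTB33 lost its call without control replicate 1 (0.184).

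Among 13 genes that regulate TET proteins or the alpha-ketoglutarate they use, 2 rose and 2 fell (2 called in all without either control library), with a median of -0.02. This share, 4 of 13, was near the 27.6% of all tested genes. GADD45G, a stress-induced gene linked to active demethylation, rose by 1.01 ± 0.14 (edgeR adjusted p = 0.000651), from 6.71 to 14.1 TPM, and by 0.93 to 1.10 in each line. CXXC4, whose protein binds TET2, fell by 1.98 ± 0.28 (edgeR adjusted p = 0.00078), at the low level of 0.505 TPM in the control and 0.166 in the lines. D2HGDH, which clears hydroxyglutarate, rose by 0.37 ± 0.11 (edgeR adjusted p = 0.0288), a call lost without control replicate 2 (0.184). The remaining call, IDH1, a source of alpha-ketoglutarate, fell by 0.27 ± 0.05 (0.00412) and was named after its value was seen. Of the 8 SDH subunits and assembly factors, SDHB alone was called (27.6% of all tested genes were), at 0.14 ± 0.05 (edgeR adjusted p = 0.0468), and not without control replicate 1 (0.329). In the methyl donor cycle, which feeds the methyltransferases, 2 genes rose and 3 fell of 9 tested (13.1% and 14.5% of all tested genes, median -0.06). SHMT1 rose by 0.25 ± 0.06 (edgeR adjusted p = 0.0111), and MTR fell by 0.23 ± 0.04 (0.00354), as did MTRR and MTHFD1. Of the 5 calls in this list, 1 was left without control replicate 1 and 2 without control replicate 2. MTR lost its call without control replicate 1 (edgeR adjusted p = 0.0916), and SHMT1 without control replicate 2 (0.18).

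Germline genes that promoter methylation keeps silent in body cells stayed near 0. All 10 were below 1 TPM in every group, with sums of 0.53 and 0.77 TPM in the control libraries and 0.12 to 0.57 in the lines. TDRD1 was the sole gene of the list high enough to test and fell by 1.69 ± 0.43 (edgeR adjusted p = 0.0162, and 0.153 without control replicate 2), from 0.26 to 0.0963 TPM.

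UHRF1, DNMT1 and several of the partners are expressed mainly in dividing cells, so proliferation genes are given beside them. Of 16 tested, 5 fell (14.5% of all tested genes) and 1 rose (13.1%), with a median of -0.06, and 2 were called without either control library. With limma on log2(TPM + 1), this list and those of the partners, the readers, base excision repair, the donor cycle and the TET regulators had at most 1 call each. MKI67 fell by 0.57 ± 0.04 (edgeR adjusted p = 1.46e-05), RRM2 by 0.34 ± 0.04 (0.000233) and MCM4 by 0.17 ± 0.03 (0.00538, and 0.0883 without control replicate 1). The others were MCM2 and MCM6, which fell, and CCNB1, which rose by 0.15 ± 0.04 (edgeR adjusted p = 0.0267). The summed level of the 16 genes was 2900 and 2940 TPM in the control and 2750 to 3090 in the lines, which overlap. The part of proliferation in the UHRF1 and DNMT1 results was not tested.

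The genes whose log2 CPM ran most like each member over the 10 libraries are given as a description, with Pearson's r, out of 11116 candidates. The 10 libraries share 5 groups and are not independent. TET1 ran most like EIF4G2 and ROCK2 (r of 0.990 each) and TET2 like KIAA1429 (0.991) and TRIM44 (0.987). UHRF1 ran like ZDHHC18 (0.993) and EP400 (0.989), and UHRF2 like RSRC2 and CHORDC1 (0.982 each). DNMT1 ran like PKM (0.989) and EFTUD2 (0.983), and DNMT3A like CEBPA (0.975) and GAB2 (0.967). TDG ran like SEC23A (0.992) and FGF14 (0.984), and MBD4 like RCOR3 and INSIG1 (0.985 each). No member appeared among the 2 genes most like another member, in a ranking from the highest r that leaves out opposite courses. Between members, r over the 10 libraries was -0.98 for UHRF1 and TDG, 0.87 for UHRF2 and MBD4 and 0.77 for TET1 and TET2. Over the 10 libraries it was near 0 in some other pairs, such as UHRF2 and TET1 (0.01), but these 2 were at -0.71 over the 8 line libraries alone. In those 8, r was -0.96 for UHRF1 and TDG, 0.9 for UHRF2 and MBD4 and 0.9 for TET1 and TET2. Some pairs changed sign without the control, such as UHRF1 and TET1 (0.61 to -0.8) and TET1 and TDG (-0.56 to 0.85).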

How the data were processed

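RNA sequencing libraries of 5 groups of 2 were analysed. Per the submitters' processing notes, the authors used STAR 2.5.3, RSEM 1.3.2 and DESeq2 1.38.3 with hg38. Neither the strand setting nor the annotation release is given in the sources used here. The authors deposited, per library, expected counts (not normalised, 10.2% to 12.8% of values not whole) and TPM, which keep no depth. A table with 10 value columns whose names match no label was not used.

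Expected counts were rounded and tested with edgeR 4.0.16 (R 4.3.3), with TMM scaling, an expression filter (minimum count of 10) and robust quasi-likelihood over all 10 libraries, which leaves 5 residual degrees of freedom. All p-values were two-sided and were adjusted by Benjamini-Hochberg over 15554 genes, with a threshold of 0.05. Alternatives were other size factors, no filter, DESeq2 1.42.0, limma 3.58.1 on log2(TPM + 1) or log2(TPM + 0.1), a replicate block, and each library left out, where a lone library is assumed to vary like the other groups. In simulated data for the mean of the lines (200 changed of 15241 genes), the share recovered by edgeR was 80.6% at 1.5-fold, 92.5% at 2-fold and 100% at 4-fold, and 8 calls were false. The largest change of a member in this comparison was 1.47-fold (TET1), below the smallest simulated one. The simulated counts also held no deviation shared by same-numbered libraries. These figures therefore do not describe calls at the size of the members' changes.

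The members, the lists and the comparison of InsE with the mean of InsF, InsG and InsH were chosen with earlier results of these data known. All 10 members are named. From each other list the text names up to 3 called genes with the largest change in the mean of the lines (2 genes so chosen are not reported here and stayed in the tests and counts), and for likeness the 2 genes with the highest r per called member; further genes named after their values were seen are PCNA, EZH2, USP7, PARP1, MTRR, MTHFD1, IDH1, MCM2, MCM6 and CCNB1, and S1PR2 and IFT122 for their overlap. The replicate numbers come from the labels. Positions of genes are from GENCODE release 29.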

Additional observations from a re-analysis of the deposited data

Results flagged for a closer look

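UHRF2, TET1, TET2 and MBD4 changed by different amounts in the 4 lines, by a test of the difference itself. The edgeR adjusted p for any difference among InsE, InsF, InsG and InsH was 0.0132 for UHRF2, 0.0309 for TET1, 0.0155 for TET2 and 0.00792 for MBD4 (2 libraries a line). None of the 4 was called without InsE replicate 1 (edgeR adjusted p = 0.184, 0.0765, 0.156 and 0.113 in that order; 4 members at an unadjusted p under 0.05) or with limma on log2(TPM + 1) (0.452, 0.149, 0.131 and 0.161; also 4). Without InsE replicate 2 MBD4 alone was called, and DESeq2 called UHRF2 and MBD4 but not TET1 (adjusted p = 0.0639) or TET2 (0.0874). On the count scale, in UHRF2 and MBD4 the InsE libraries lay above the control and those of the other 3 lines below it. In TET1 and TET2 the InsE libraries were the lowest of all 10.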

How the results depend on the processing

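Over all members, the number called kept within 1.5 times the main count with other size factors (RLE) and without a filter. It was 7 in InsE, 6 in InsF, 5 in InsG, 4 in InsH, 6 in the mean of the lines, 4 among the lines and 4 for InsE against the other lines. With limma on log2(TPM + 1), log2(TPM + 0.1) and log2(TPM + 1) with no filter it was 3, 3 and 3 in InsE, 2, 2 and 1 in InsF, 2, 2 and 2 in InsG, 2, 2 and 2 in InsH, and 0, 0 and 0 among the lines (4 at an unadjusted p under 0.05 in each). With either pseudocount and the filter it was 2 for InsE against the other lines. With library sizes alone it was 3 in InsF and 3 in InsG, and with DESeq2 3 in InsF and 2 among the lines. The labels give all groups the same replicate numbers, and with the replicate block the count was 7 in InsH and 8 for InsE against the other lines, and with the block in the line libraries alone 8 among the lines and 8 for InsE against the other lines. Against control the block pairs nothing, and it moved no other count by over 1.5 times. Leaving out each library gave 2 to 7 in InsE, 2 to 6 in InsF, 2 to 5 in InsG, 3 to 5 in InsH, 3 to 7 in the mean of the lines, 0 to 4 among the lines and 3 to 5 for InsE against the other lines. The mean of the lines had 3 members without either control library.

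Of the single results of members under these alternatives, 1105 kept direction and side of the threshold, 154 lost the call, 35 gained it and 26 changed sign, none of these with a call on the main scale. On all 3 TPM settings, DNMT1 in InsF was 0.02, UHRF2 in InsE -0.08, TET2 in InsH 0.0, TET3 in InsE against the other lines -0.01, MBD4 in InsG 0.02 and in the mean of the lines 0.01. TET2 in InsG was 0.06, 0.07 and 0.06 on these, 0.05 with library sizes alone, and 0.01 without control replicate 1 or InsG replicate 2. MBD4 in the mean of the lines was 0.01 with library sizes alone. DNMT3B in InsG ranged from -0.35 without InsG replicate 1 to 0.01 without InsG replicate 2. TET2 in InsG was -0.03 without InsG replicate 1. The cause was not tested. The shallowest library held 9.4 M (mega) counts, which limits DNMT3B most, at 59 to 292 counts a library.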

Other observations

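The shared deviation of same-numbered libraries was visible in the members. In all 4 lines the shallower replicate 2 was higher than replicate 1 in DNMT1, UHRF1 and TET3, and lower in UHRF2, TET1 and TDG. DNMT3A was higher in replicate 2 in 3 of 4 lines, MBD4 lower in 3 of 4, and DNMT3B higher in 2 and lower in 2. TET2 was lower in 3 of 4 and at 22.4 CPM in both InsE libraries. The control libraries of TET1 (54.2 and 54.7 CPM) and UHRF2 (30.3 and 30.2 CPM) differed by less than those of InsE and InsH.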
